A study of Mus musculus with 12 samples.

Results

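The genes described here encode the enzymes of cholesterol and fatty acid synthesis together with regulators and targets of the sterol-responsive transcription factors SREBP1 and SREBP2, and they were chosen by name from a list of 33 genes. A probe was annotated to 30 of them (48 probes), and 28 genes, with 41 probes, had a detection p under 0.05 on at least 2 of the 12 arrays and were tested, out of 10847 genes tested in all. The 28 comprised 15 of 18 sterol synthesis genes, 8 of 9 fatty acid synthesis genes and 5 of 6 regulators and transport genes. Acat2, Hmgcs1 and Fdft1 were not analysed here because no probe was annotated to them, and Acaca, detected on 0 arrays, and Abca1, detected on 1, did not pass the filter. Of the 28, 25 were detected on all 12 arrays, Idi1 on 9, Sc5d on 8 and Fasn on 6. Differences of Idi1 and Sc5d in replicate 1 therefore rest in part on signals near background, and those of Fasn wholly. RNA came from C2C12 cells, a single immortalised line of mouse myoblasts, which were transfected with 100 nM of a scrambled siRNA (siSCR), an siRNA to BRM (siBRM) or an siRNA to BRG1 (siBRG1) using Dharmafect3. All cells were kept in RPMI with FBS as growth medium and were then moved to RPMI with HS and ITS as differentiation medium. Cells were taken 18 h or 48 h after that change, which gave 6 groups of 2 arrays, so that siSCR was the control at each time. Whether the replicates were separate cultures is not given in the sources used here, and the p-values therefore reflect no more than how far these samples lie apart.

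Cholesterol is built from acetyl-CoA through mevalonate and farnesyl diphosphate to squalene, which is closed to lanosterol and then trimmed to cholesterol in the endoplasmic reticulum. SREBP2 switches on most of these enzymes, and SREBP1 those of fatty acid synthesis, when membrane sterol is low. SCAP carries both factors to the Golgi for cleavage, and INSIG proteins hold SCAP back when sterol is plentiful. In myoblasts the same products feed the membranes that are rearranged when cells fuse into myotubes.

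BRM and BRG1, the ATPases of the SWI/SNF chromatin remodelling complexes, are encoded by Smarca2 and Smarca4, whose own signals served as a check of the labels. Smarca2 had log2 signals of 10.44 and 9.30 with siSCR and 9.72 and 7.67 with siBRM at 18 h (replicates 1 and 2), and 10.20 and 9.21 against 9.49 and 8.73 at 48 h. Smarca4 had 7.46 and 9.09 with siSCR against 6.09 and 8.04 with siBRG1 at 18 h, and 8.60 and 9.10 against 6.14 and 7.68 at 48 h. Each target was lower in both replicates with its own siRNA, and Smarca4 was not detected on the siBRG1 arrays of replicate 1. The groups overlapped except for Smarca4 at 48 h, and no such difference passed the limma test (adjusted p = 1.0 for each). Replicate 1 lay on 1 BeadChip at 18 h and on another at 48 h, while all 6 arrays of replicate 2 shared the last of the 3 BeadChips. Time and BeadChip therefore cannot be told apart in replicate 1, whereas replicate 2 gives every comparison within 1 BeadChip. Mean unnormalized signals were 513 to 794 in replicate 1 and 1218 to 1644 in replicate 2, and 27.33% to 39.37% of probes were detected. The myoblast markers Myod1, Des, Cdh15, Myog and Itga7 were detected on all 12 arrays. Of 5 adipocyte markers, Adipoq, Plin1 and Cidec were detected on 0 arrays and Pparg on all 12, at log2 signals of 8.24 to 9.30 at 18 h and 7.19 to 8.20 at 48 h. Cfd had no probe. Of 5 osteoblast markers, Ibsp and Sp7 were detected on 0 arrays, Bglap on 1 and Alpl on 4, and Runx2 had no probe. Of 5 hepatocyte markers, Apoa1, Ttr and Cyp7a1 were detected on 0 arrays, Alb on 1 and Serpina1a on 3. Of the leukocyte markers, Ptprc and Adgre1 were detected on 0 arrays and Cd3e on 5, and Cd68 had no probe.

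Most genes of sterol and fatty acid synthesis had lower signals at 48 h than at 18 h with every siRNA. With siSCR, 19 of the 28 genes were lower in both replicates, against 31.9% of all tested genes, and 3 were higher, against 25.3%. With siBRM 25 were lower and 1 higher (31.7% and 29.1% of all tested genes), and with siBRG1 24 were lower and 1 higher (33.9% and 31%). These 3 comparisons share no arrays, though they share BeadChips, and 17 of the 28 genes (60.7%) were lower in both replicates with each of the 3 siRNAs, against 12.7% of all tested genes. The 17 were 10 of 15 sterol genes, 5 of 8 fatty acid genes and 2 of 5 regulators and transport genes. They include Fasn, which no array of replicate 1 detected, so that its signs there compare signals near background. They also include Idi1, which some arrays of replicate 1 did not detect. These counts rest on the brightest probe of each gene. Of 10 members with several tested probes, all probes had mean differences of 1 sign in 6 with siSCR, 8 with siBRM and 8 with siBRG1. That sign was lower at 48 h, except in Srebf2. Both Srebf2 probes were higher with siSCR (0.025 and 1.28) and with siBRM (0.20 and 0.42). In bulk RNA, fewer cells of a type and less RNA per cell cannot be told apart.

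The median difference between 48 h and 18 h of the 15 sterol genes was -0.56 on the log2 scale with siSCR, -0.88 with siBRM and -0.80 with siBRG1. That of the 8 fatty acid genes was -0.55, -0.51 and -0.71, and that of all tested genes was -0.06, -0.02 and -0.02. Within the 1 BeadChip of replicate 2 the sterol median was -0.86, -0.89 and -1.02. Scaling each array to its median in place of quantile normalization moved the median of all tested genes with siSCR to 0.27 and that of the sterol genes to -0.07, a difference between the medians of -0.34 in place of -0.50.

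**Figure D1:**
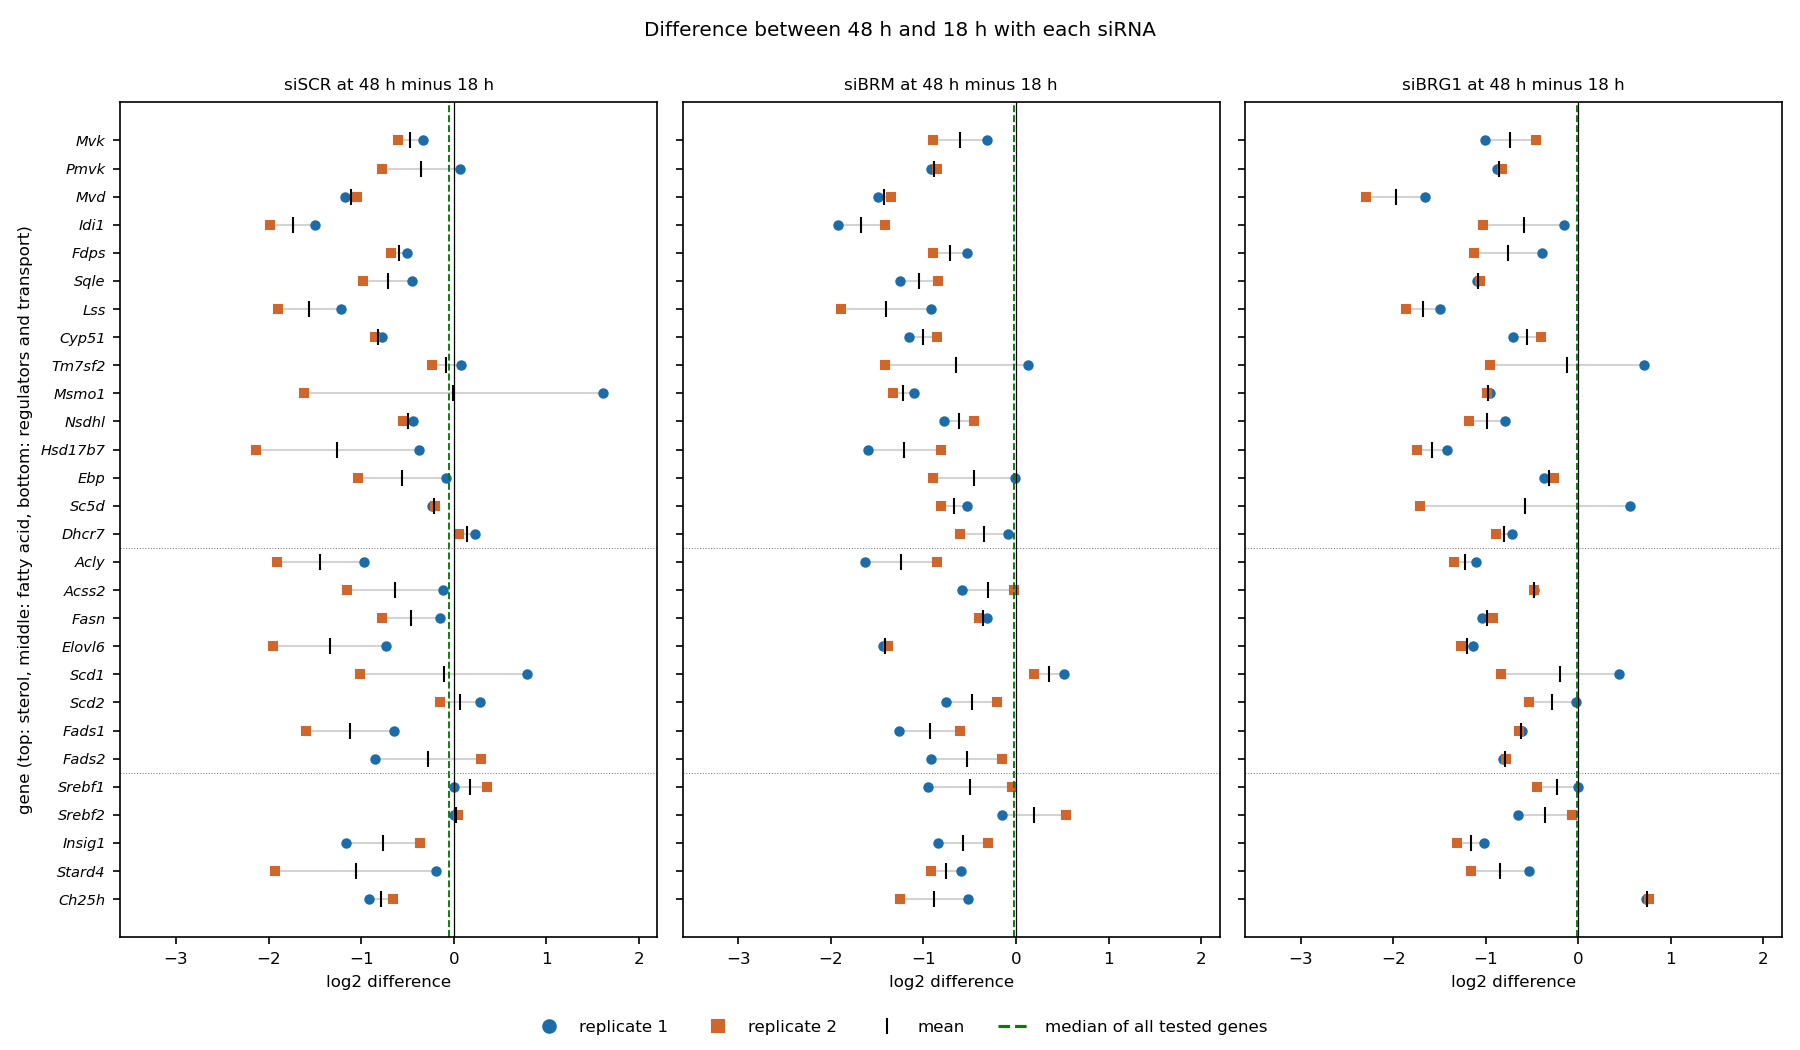
Log2 difference between 48 h and 18 h (x axis) for each of the 28 tested genes (y axis) with siSCR, siBRM and siBRG1. Circles and squares are replicates 1 and 2, black ticks their mean, and the dashed line is the median of all 10847 tested genes; most points lie left of 0, and Ch25h lies right of it with siBRG1 only. Replicate 1 points of Idi1, Sc5d and Fasn include arrays on which the gene was not detected.

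Single genes were tested in 1 limma fit across the whole array. Without a block, its standard errors (SE) and p-values take in the shift between replicates, and not only the spread of the paired differences. With no block, 0 of the 28 genes were called between 48 h and 18 h with any siRNA, where 0.323% of all tested genes were called with siSCR, 0.461% with siBRM and 0.101% with siBRG1. An unadjusted p under 0.05 was reached by 4, 4 and 6 of the 28, against 585, 516 and 364 of all 10847 tested genes. With BeadChip as a random term, 1 of the 28 was called with siSCR (2.77% of all tested genes), 3 with siBRM (2.5%) and 2 with siBRG1 (1.1%). With the replicate number as a block, 1 was called with siBRM (2.5%) and 1 with siBRG1 (0.867%), and with BeadChip as a block 1 was called with siBRG1 (0.479%). All of those calls were of Lss, Mvd or Elovl6, and all were of lower signals at 48 h.

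In the mevalonate stage, Mvd, the decarboxylase that makes isopentenyl diphosphate, had log2 signals of 12.58 and 11.83 at 18 h and 11.40 and 10.78 at 48 h with siSCR. It had 12.58 and 11.83 against 11.09 and 10.47 with siBRM, and 12.66 and 11.96 against 11.00 and 9.67 with siBRG1. All 6 of its 48 h arrays lay below all 6 of its 18 h arrays. The difference was -1.11 ± 0.59 (SE) with siSCR, -1.42 ± 0.59 with siBRM and -1.97 ± 0.59 with siBRG1, the last a level 0.255 times that at 18 h. None of these was called without a block (limma adjusted p = 1.0, 1.0 and 0.844). With siBRG1 the adjusted p was 0.0170 with the replicate block, 0.0489 with the BeadChip block and 0.0173 with the random term. With siBRM it was 0.0334, 0.0787 and 0.0495, and with siSCR 0.0771, 0.131 and 0.109.

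Idi1, the isomerase of the next step, had 8.20 and 8.08 at 18 h and 6.70 and 6.10 at 48 h with siSCR, a difference of -1.74 ± 1.04 (limma adjusted p = 1.0). Its siSCR arrays at 48 h both lay below those at 18 h. It was not detected on 3 arrays of replicate 1, those of siBRM at 48 h and of siBRG1 at both times. In replicate 2, where it was detected throughout, it went from 8.97 to 7.55 with siBRM and from 8.35 to 7.32 with siBRG1. The kinase Mvk, which phosphorylates mevalonate, was lower in all 6 pairs of arrays, by log2 differences from -1.01 to -0.32. Fdps, farnesyl diphosphate synthase, was also lower in all 6, with differences from -1.13 to -0.39, and a dimmer second Fdps probe gave larger mean differences, from -2.09 to -1.53 over the 3 siRNAs. Pmvk, the second mevalonate kinase, was lower in 5 of 6 pairs.

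Lss, lanosterol synthase, which closes the sterol ring, had 11.54 and 11.55 at 18 h and 10.32 and 9.65 at 48 h with siSCR. Its signals were 11.04 and 12.15 against 10.12 and 10.25 with siBRM, and 11.41 and 11.47 against 9.92 and 9.60 with siBRG1. The 6 arrays of 48 h were again all below the 6 of 18 h. Differences were -1.56 ± 0.47, -1.41 ± 0.47 and -1.68 ± 0.47, or levels of 0.339, 0.377 and 0.312 times those at 18 h. They were not called without a block (limma adjusted p = 0.559, 0.707 and 0.748) or with the replicate block (0.0871, 0.133 and 0.132). They were not called with the BeadChip block either, and were called only with BeadChip as a random term (0.0325, 0.0499 and 0.0407). A second Lss probe, detected on 3 arrays, gave 0.27 with siSCR, and the mean of both probes gave -0.65.

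Hsd17b7, the 3-ketosteroid reductase of the late pathway, had 13.19 and 13.06 at 18 h and 12.82 and 10.92 at 48 h with siSCR, a difference of -1.26 ± 0.60 (limma adjusted p = 1.0). It had 13.59 and 13.01 against 11.99 and 12.20 with siBRM, and 13.48 and 13.18 against 12.06 and 11.44 with siBRG1. No 48 h array reached any 18 h array, and the difference with siBRG1 was -1.58 ± 0.60 (limma adjusted p = 1.0). Sqle, squalene epoxidase, was lower in all 6 pairs on its brightest probe, by -1.25 to -0.45, and its second probe had mean differences of -1.29 to -0.73. Nsdhl, the sterol decarboxylase, was read by 4 probes that were all detected on 12 arrays. All 4 were lower at 48 h with each siRNA, by mean differences of -0.58 to -0.49 with siSCR, -0.75 to -0.36 with siBRM and -1.11 to -0.87 with siBRG1. Cyp51, which removes a methyl group of lanosterol, and Ebp, the sterol isomerase, were lower in all 6 pairs as well.

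The remaining genes of this stage were less regular. Msmo1, the sterol methyl oxidase, had 7.65 and 11.49 at 18 h and 9.26 and 9.87 at 48 h with siSCR, so that it was higher by 1.61 in replicate 1 and lower in replicate 2 (-1.62). It was lower in both replicates with siBRM (-1.10 and -1.33) and siBRG1 (-0.95 and -0.99). Its replicates differed more than those of any other tested member, by a median of 2.45 over the 6 groups. Tm7sf2, a sterol reductase, was lower in 3 of 6 pairs. Dhcr7, the reductase of the last step, was lower in 4 of 6 pairs, and the siSCR pairs were the 2 exceptions (0.23 and 0.06). Sc5d, the sterol desaturase, was lower in 5 of 6 pairs, but 4 of its 6 arrays in replicate 1 did not detect it.

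**Figure D2:**
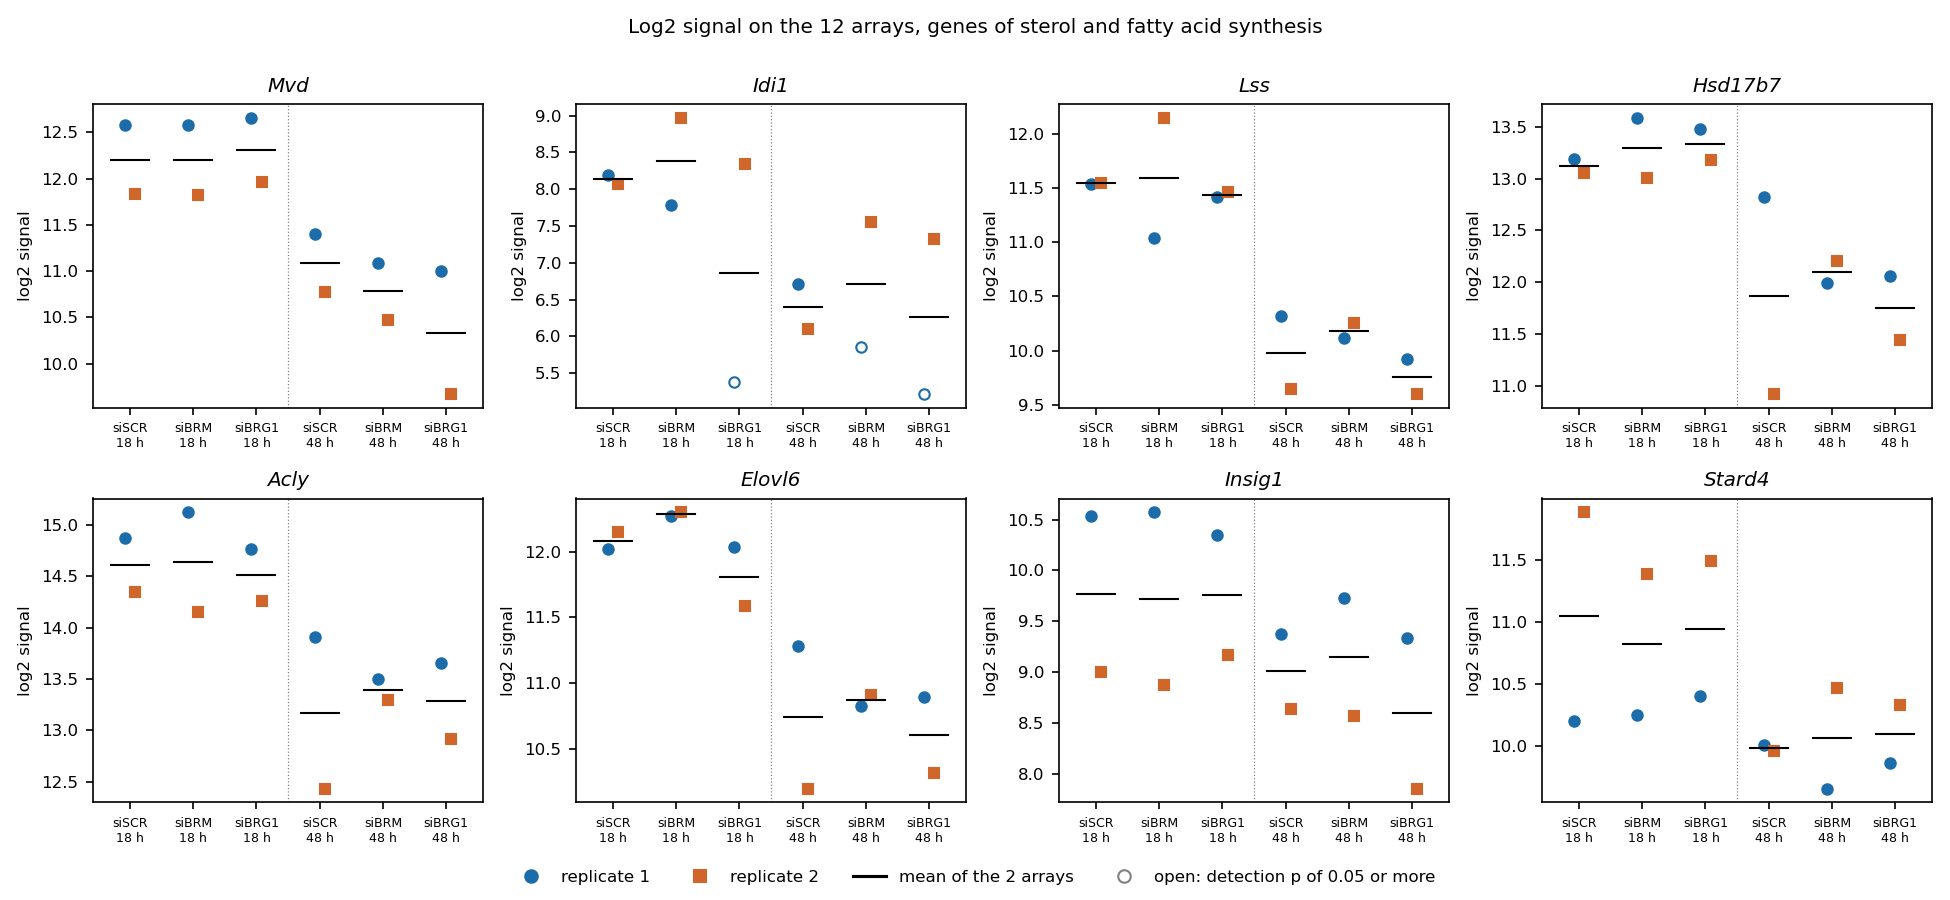
Log2 signal (y axis) on each of the 12 arrays for 8 genes, with the 6 groups on the x axis. Circles and squares are replicates 1 and 2, open symbols are arrays with a detection p of 0.05 or more, and black lines are means of 2 arrays; Mvd, Lss, Hsd17b7, Acly and Elovl6 have all 48 h arrays below all 18 h arrays.

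Among fatty acid genes, Acly, which makes cytosolic acetyl-CoA from citrate, had 14.88 and 14.35 at 18 h and 13.90 and 12.43 at 48 h with siSCR. It had 15.12 and 14.16 against 13.50 and 13.30 with siBRM, and 14.77 and 14.26 against 13.66 and 12.91 with siBRG1. The 48 h arrays were all below the 18 h arrays, and the siSCR difference was -1.44 ± 0.59 (limma adjusted p = 0.977, and 0.0715 with the random term). Elovl6, the elongase of long saturated chains, had 12.02 and 12.15 against 11.28 and 10.20 with siSCR, 12.27 and 12.30 against 10.83 and 10.91 with siBRM, and 12.04 and 11.58 against 10.90 and 10.31 with siBRG1. Its groups did not overlap either. The difference was -1.34 ± 0.47 with siSCR and -1.41 ± 0.47 with siBRM (limma adjusted p = 0.790 and 0.690), and the random term called it with siBRM only (0.0495, against 0.0564 with siSCR and 0.153 with siBRG1). Fads1, a desaturase of polyunsaturated chains, had 14.78 and 14.63 against 14.13 and 13.03 with siSCR, a difference of -1.12 ± 0.46 (limma adjusted p = 0.963), and was lower in all 6 pairs.

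Acss2, which makes acetyl-CoA from acetate, was lower in all 6 pairs by -1.16 to -0.03 on its brightest probe. A dimmer Acss2 probe, detected on 4 arrays, gave 0.71 with siSCR, 0.61 with siBRM and -0.31 with siBRG1. Fasn, fatty acid synthase, was detected only on the 6 arrays of replicate 2, where it went from 7.43 to 6.66 with siSCR, from 7.15 to 6.75 with siBRM and from 7.59 to 6.67 with siBRG1. The desaturase genes Scd1 and Scd2, which place the first double bond, were less regular. Scd1 was lower in 2 of 6 pairs and Scd2 in 5 of 6, with mean Scd2 differences of 0.07, -0.48 and -0.28 for siSCR, siBRM and siBRG1.

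Of the regulators, the genes of the factors themselves had small mean differences between times with siSCR on their brightest probes. Srebf1 had 9.46 and 7.92 at 18 h and 9.47 and 8.28 at 48 h, a difference of 0.18 ± 0.82, and Srebf2 had 11.80 and 11.48 against 11.80 and 11.53, a difference of 0.02 ± 0.49 (limma adjusted p = 1.0 for both). Their groups overlapped. A dimmer Srebf2 probe, detected on all 12 arrays, gave 1.28 with siSCR, 0.42 with siBRM and 0.15 with siBRG1. On the brightest probes Srebf1 and Srebf2 differed by -0.50 and 0.20 with siBRM, and by -0.23 and -0.36 with siBRG1. Insig1, whose protein holds SCAP back when sterol is plentiful, had 10.54 and 9.0 against 9.37 and 8.64 with siSCR. It was lower in all 6 pairs on its brightest probe. Its siSCR difference was -0.76 ± 0.83 (limma adjusted p = 1.0), and its replicates differed by a median of -1.33 (replicate 2 minus replicate 1). With siSCR its middle probe gave -0.96, and its dimmest probe went the other way (0.86). With siBRM the brightest probe gave -0.57, but the middle and dimmest probes gave 0.056 and 0.34. With siBRG1 the probes gave -1.16, -0.57 and -0.18. Stard4, a carrier of cholesterol between membranes, was lower in all 6 pairs by -1.93 to -0.19.

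Of 22 further genes of these pathways that were listed beside the members, 16 were tested and 6 (37.5%) were lower in all 6 pairs. They were Slc25a1, Lpin1, Aacs, Elovl5, Npc2 and Tmem97. Slc25a1, the mitochondrial citrate carrier that feeds Acly, had 12.08 and 11.31 at 18 h and 10.85 and 9.93 at 48 h with siSCR, with no overlap. Its difference was -1.31 ± 0.51 with siSCR and -1.48 ± 0.51 with siBRM, not called without a block (limma adjusted p = 0.928 and 0.775) and called with the replicate block (0.0388 and 0.0225, where 2.65% and 2.5% of all tested genes were called). Lpin1, a phosphatidate phosphatase of lipid synthesis, had 9.30 and 8.72 against 7.96 and 7.08 with siSCR. Its difference of -1.49 ± 0.66 had an adjusted p of 1.0 without a block and 0.0476 with the replicate block. With siSCR, Gpam, a glycerol-phosphate acyltransferase, was detected at 48 h only (6.85 and 7.77). Among genes of SREBP processing, which were not called, the siSCR difference was -0.83 for Scap, 0.23 for Insig2 and 0.40 for Mbtps1, a protease that cleaves SREBPs.

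The bases before the gene start are shown for 4 sterol genes that were lower at 48 h than at 18 h in all 6 pairs. Ch25h, which was lower in 4 of 6 pairs and higher with siBRG1, is shown for contrast. Sequences are from RefSeq on GRCm38.p6, 5′ to 3′ on the strand of the gene, and only bases outside the annotated gene are printed. Capitals mark the letters CCAAT (the box of NF-Y), GGGCGG (the box of Sp1), CACGTG (an E-box) and CACNCCAC (part of a sterol regulatory element) on either strand, so that ATTGG and CCGCCC are marked too. Lss lies at chr10:76531355-76531564 (plus strand), Hsd17b7 at chr1:169969243-169969455 (minus strand), Mvd at chr8:122443423-122443672 (minus strand), Idi1 at chr13:8885356-8885605 (plus strand) and Ch25h at chr19:34475149-34475398 (minus strand).
Lss: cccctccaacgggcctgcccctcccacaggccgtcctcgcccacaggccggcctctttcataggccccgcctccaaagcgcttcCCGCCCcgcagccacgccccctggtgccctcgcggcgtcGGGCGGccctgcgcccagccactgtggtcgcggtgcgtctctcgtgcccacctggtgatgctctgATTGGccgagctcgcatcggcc
Hsd17b7: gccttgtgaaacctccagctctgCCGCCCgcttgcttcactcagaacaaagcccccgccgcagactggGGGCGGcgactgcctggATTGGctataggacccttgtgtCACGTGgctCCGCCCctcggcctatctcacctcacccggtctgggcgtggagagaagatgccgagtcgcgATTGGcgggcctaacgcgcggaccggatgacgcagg
Mvd: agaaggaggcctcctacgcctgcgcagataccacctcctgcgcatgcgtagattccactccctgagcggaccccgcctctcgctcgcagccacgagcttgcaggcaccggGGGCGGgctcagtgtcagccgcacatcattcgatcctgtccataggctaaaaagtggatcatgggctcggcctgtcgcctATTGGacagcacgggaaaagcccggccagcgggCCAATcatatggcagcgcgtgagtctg
Idi1: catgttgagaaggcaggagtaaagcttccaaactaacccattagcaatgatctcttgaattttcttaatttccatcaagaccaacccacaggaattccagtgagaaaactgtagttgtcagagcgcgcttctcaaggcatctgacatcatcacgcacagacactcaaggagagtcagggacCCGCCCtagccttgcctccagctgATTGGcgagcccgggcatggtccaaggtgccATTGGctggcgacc
Ch25h: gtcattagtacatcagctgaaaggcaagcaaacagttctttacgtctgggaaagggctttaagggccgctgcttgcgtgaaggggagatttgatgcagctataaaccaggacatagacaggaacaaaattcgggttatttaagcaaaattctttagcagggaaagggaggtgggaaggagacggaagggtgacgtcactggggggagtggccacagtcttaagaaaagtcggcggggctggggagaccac

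The 250 bases before each listed start were searched in the 22 tested members that matched an entry by symbol. The same was done for the 8775 of all tested genes that matched. Unlike the printed sequences, these bases were searched whole, also where they lay inside the annotated gene. CCAAT, on either strand, was in 18 of the 22 (81.8%), against 40.5% of all tested genes with an entry. It was in 13 of the 13 sterol genes, but in Dhcr7 only inside the annotated gene. For Fasn and Srebf1, all of the searched bases lay inside the annotated gene. GGGCGG was in 18 of the 22 (81.8%), against 62.7%, and CACGTG in 4 (18.2%), against 9.89%. The sterol element part CACNCCAC was in 1 of the 22, Insig1 (4.55%), against 6.74%. The longer TCACNCCAC, which contains it, was in 0, against 1.16% of all tested genes and 1.05% of all 32851 promoters in the table. CCAAT was in 33.8% of those promoters, GGGCGG in 32.7%, CACGTG in 6.02% and CACNCCAC in 5.29%. Ch25h held none of these letters in the 250 bases, and neither did Elovl6, which was lower at 48 h in all 6 pairs. Acly, also lower in all 6 pairs, held GGGCGG but no CCAAT. Tm7sf2 and Srebf2 held both and were lower in 3 of 6 pairs. A link between these letters and the differences was not tested.

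At 18 h no member differed from siSCR by the test with either knockdown. With siBRM against siSCR, 0 of 28 genes were called (0% of all tested genes). An unadjusted p under 0.05 was reached by 0, against 34 of all 10847 tested genes. In both replicates 1 gene was lower and 9 were higher, against 26.4% and 24% of all tested genes. The sterol median was 0.09 and the fatty acid median -0.02, beside -0.01 for all tested genes. Msmo1 had the largest difference, from 7.65 and 11.49 with siSCR to 9.11 and 12.04 with siBRM, or 1.01 ± 1.51 (limma adjusted p = 1.0), but the groups overlapped widely. Scd1 went from 12.31 and 14.30 to 11.64 and 13.79 (-0.59 ± 1.07), also with overlap. Srebf1 differed by 0.32. The brightest probes of Srebf2 and Insig1 gave -0.16 and -0.05, but the dimmer Srebf2 probe gave 0.67 and the other 2 Insig1 probes 0.16 and 0.49.

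With siBRG1 against siSCR at 18 h, 0 of 28 genes were called (0% of all tested genes). An unadjusted p under 0.05 was reached by 0, against 128 of all 10847 tested genes. In both replicates 7 genes were lower and 10 higher, against 29.7% and 29.8% of all tested genes. Mvk had 9.54 and 8.96 with siBRG1 against 8.47 and 8.77 with siSCR, so that both siBRG1 arrays were higher, by 0.63 ± 0.42 (limma adjusted p = 1.0). Without overlap, 2 of the 28 members lay above siSCR and 1 below, against 760 and 895 of all 10847 tested genes. Fads2, a desaturase of polyunsaturated chains, Ebp and Dhcr7 differed by 0.50, 0.47 and 0.45, with 1 sign in both replicates. Leaving out 1 array at a time brought these 3 differences as low as 0.013, 0.095 and 0.084, and as high as 0.98, 0.84 and 0.82. Idi1 was not detected on the siBRG1 array of replicate 1, at least 1.79-fold lower than on the siSCR array when set at that array's lowest detected signal, while in replicate 2 it was 0.27 higher. Srebf1 differed by 0.33, and the brightest probes of Srebf2 and Insig1 by 0.012 and -0.011, against 0.35 on the dimmer Srebf2 probe and 0.088 and 0.61 on the other Insig1 probes.

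**Figure D3:**
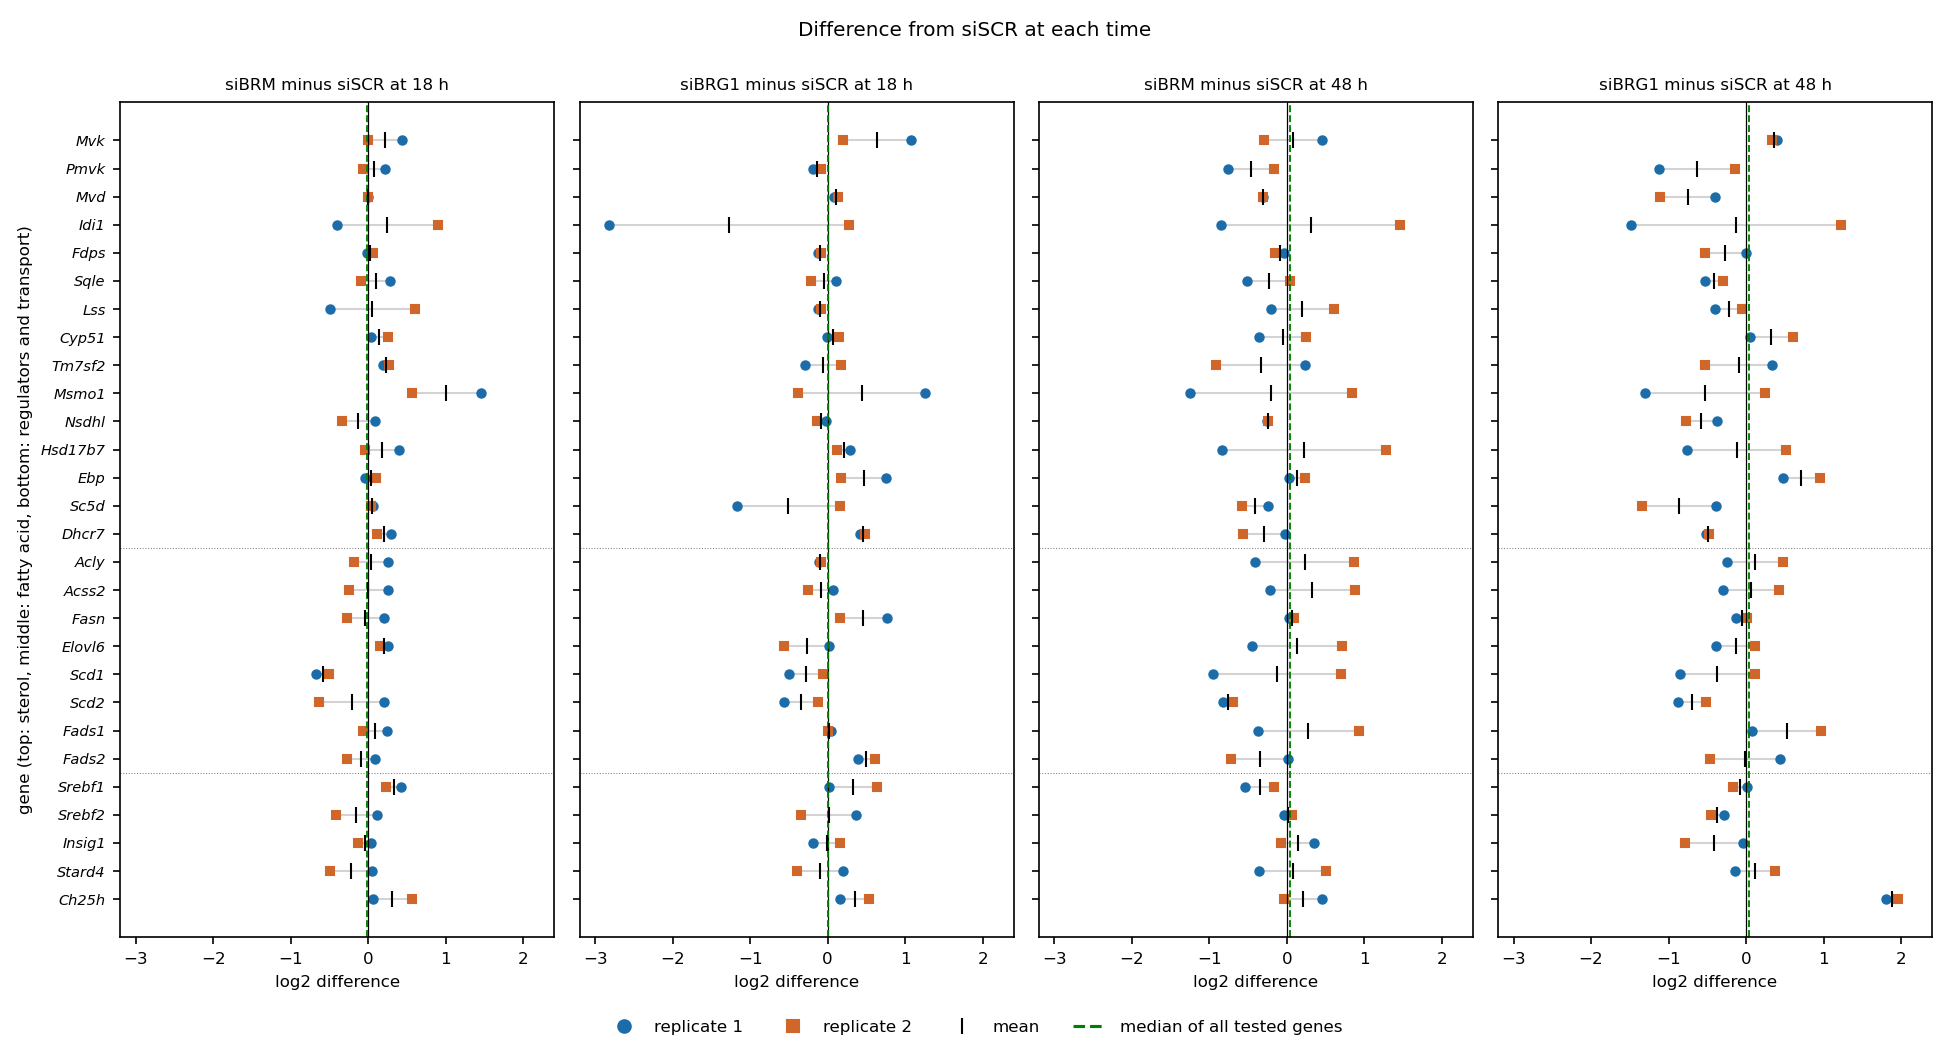
Log2 difference from siSCR (x axis) for each of the 28 tested genes (y axis) with siBRM and siBRG1 at 18 h and 48 h. Circles and squares are replicates 1 and 2, black ticks their mean, and the dashed line is the median of all tested genes; Ch25h with siBRG1 at 48 h has the highest mean, 1.89. Replicate 1 points of Idi1, Sc5d and Fasn include arrays on which the gene was not detected.

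At 48 h with siBRM, 0 of 28 genes were called (0% of all tested genes). An unadjusted p under 0.05 was reached by 0, against 17 of all 10847 tested genes. In both replicates 8 genes were lower and 2 higher, against 16.5% and 21% of all tested genes, and 6 of the 15 sterol genes were among the lower. The sterol median was -0.20 and that of all tested genes 0.03. Scd2 had 11.19 and 12.14 with siSCR and 10.36 and 11.45 with siBRM, lower in each replicate although the groups overlapped, with a difference of -0.76 ± 0.79 (limma adjusted p = 1.0). Pmvk, Srebf1, Mvd, Dhcr7 and Nsdhl differed by -0.46, -0.35, -0.31, -0.29 and -0.25, each with 1 sign in both replicates. On their brightest probes Srebf2 and Insig1 differed by 0.013 and 0.14. The dimmer Srebf2 probe gave -0.19, and the other Insig1 probes gave 1.17 (detected on all 12 arrays) and -0.032, so that the probes of each gene disagreed.

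At 48 h with siBRG1, 10 of 28 genes were lower in both replicates and 5 higher, against 24.1% and 30% of all tested genes. Of the 15 sterol genes 7 were lower and 3 higher, with a median of -0.27 beside 0.04 for all tested genes. Without a block 0 of 28 genes were called (0% of all tested genes). An unadjusted p under 0.05 was reached by 1, Ch25h, against 218 of all 10847 tested genes. With BeadChip as a random term, Ch25h was the 1 member called (0.101% of all tested genes).

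Ch25h encodes cholesterol 25-hydroxylase, which makes an oxysterol that restrains SREBP processing. It had log2 signals of 8.15 and 7.70 with siSCR at 48 h, 8.60 and 7.67 with siBRM and 9.96 and 9.66 with siBRG1. Both siBRG1 arrays at 48 h were above every one of the other 10 arrays, the highest of which had 9.23. Against siSCR the difference was 1.89 ± 0.47, or 3.69-fold, and it was 1.81 in replicate 1 and 1.96 in replicate 2. The limma adjusted p was 1.0 without a block, 0.130 with the replicate block, 0.148 with the BeadChip block and 0.0430 with the random term. At 18 h, Ch25h had 9.06 and 8.36 with siSCR, 9.12 and 8.92 with siBRM and 9.23 and 8.90 with siBRG1, and the siBRG1 difference was 0.35 ± 0.47. The siBRG1 difference was larger at 48 h than at 18 h by 1.53 ± 0.67 (limma unadjusted p = 0.0454, adjusted p = 1.0). The Ch25h difference between 48 h and 18 h was -0.79 ± 0.47 with siSCR, -0.89 ± 0.47 with siBRM and 0.75 ± 0.47 with siBRG1, none of them called.

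**Figure D4:**
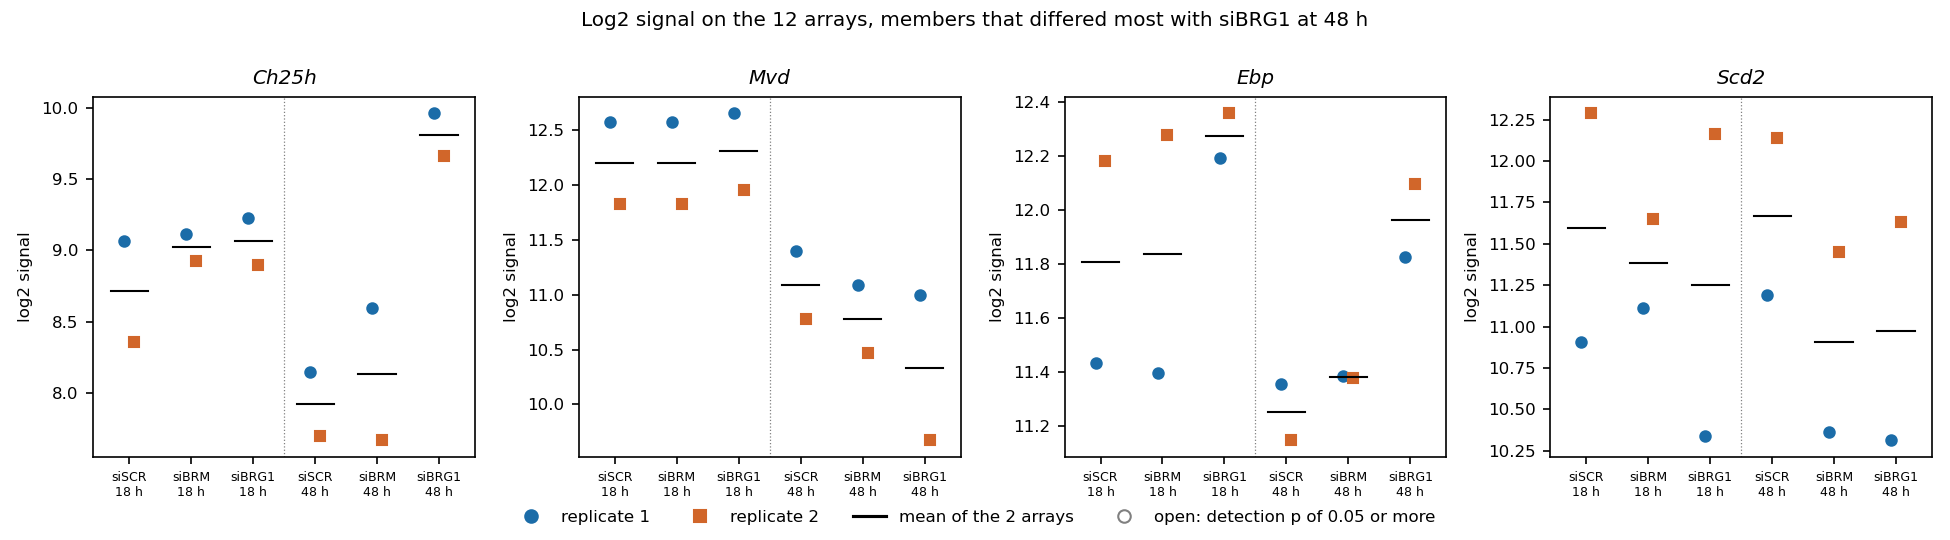
Log2 signal (y axis) of Ch25h, Mvd, Ebp and Scd2 on each of the 12 arrays, by group (x axis). Circles and squares are replicates 1 and 2 and black lines means of 2 arrays; the 2 Ch25h values with siBRG1 at 48 h, 9.96 and 9.66, lie above all others.

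Among the synthesis enzymes, Mvd had 11.40 and 10.78 with siSCR and 11.00 and 9.67 with siBRG1 at 48 h, a difference of -0.75 ± 0.59 (limma adjusted p = 1.0) with overlapping groups. Nsdhl had 12.26 and 12.03 against 11.88 and 11.26, with no overlap, a difference of -0.57 ± 0.41, and its 4 probes gave -0.74 to -0.45. Scd2 (-0.69 ± 0.79) and Pmvk (-0.63 ± 0.95) were lower in both replicates with overlapping groups. Ebp went the other way, from 11.35 and 11.14 with siSCR to 11.83 and 12.10 with siBRG1, both above both siSCR arrays, a difference of 0.71 ± 0.45. None of these differences was called under any of the blocks. With siBRG1 at 48 h, 2 of the 28 members lay below siSCR and 3 above without overlap. Of all 10847 tested genes, 1139 lay below and 1141 above in the same way. Srebf1 differed by -0.074. The Srebf2 probes gave -0.37 and -0.78, whereas the Insig1 probes disagreed, with -0.41 on the brightest and 0.47 and -0.43 on the others. Of the further pathway genes, Mylip, a ubiquitin ligase, differed by -0.96 ± 0.49 and Gpam by -0.80 ± 0.61 (limma adjusted p = 1.0 for both), detected on 2 and 3 of the 4 arrays. Slc25a1, detected on all 4, had 11.33 and 10.70 with siBRG1 against 10.85 and 9.93 with siSCR, a difference of 0.62 ± 0.51 (limma adjusted p = 1.0).

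The knockdowns were also set against each other. At 18 h 0 of 28 genes were called between siBRM and siBRG1 (0% of all tested genes). An unadjusted p under 0.05 was reached by 0, against 147 of all 10847 tested genes. The largest difference among genes detected on all 4 arrays was that of Fads2, -0.59 ± 0.59 for siBRM minus siBRG1. At 48 h 0 genes were called without a block (0% of all tested genes), and Ch25h, with an unadjusted p of 0.00572, was the 1 member called with the random term (adjusted p = 0.0467; 0.258% of all tested genes). The siBRM minus siBRG1 difference of Ch25h was -1.36 and -1.99 in the 2 replicates, with a mean of -1.68 ± 0.47. Ebp was lower with siBRM than with siBRG1 (-0.58 ± 0.45) and Insig1 higher (0.55 ± 0.83), and neither was called. The change of a knockdown difference between 18 h and 48 h was called for 0 of 28 genes with siBRM (0% of all tested genes) and for 0 with siBRG1 (0%). An unadjusted p under 0.05 was reached by 0 with siBRM, against 22 of all 10847 tested genes, and by 1, Ch25h, with siBRG1, against 61.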

How the data were processed

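RNA of 12 samples was hybridised to Illumina mouse BeadChips, with 6 groups of 2 arrays. The deposited intensities are bead-averaged signals per probe on a linear scale, and the unnormalized table was used. The deposited detection p-values set each probe against the negative controls of its array. Other units in it, per the file headers, are bead numbers and bead standard errors, which no test used. A second deposited table of intensities, taken from its values as quantile normalized, served as an alternative. The submitters' processing notes name GenomeStudio 2009.1, and no other step is stated in the sources used here.

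Background was corrected with normexp on the detection p-values (offset 16) in limma 3.58.1 (R 4.3.3, statmod 1.5.0), and signals were quantile normalized and taken to log2. Probes with a detection p under 0.05 on at least 2 arrays were tested, 20415 of 45281, and a gene was read from its brightest tested probe (10847 genes). One limma model of the 6 group means, with no block and 6 residual degrees of freedom, gave every comparison, with Benjamini-Hochberg adjustment over all tested probes and calls at an adjusted p under 0.05. The printed SEs are from that model and include the shift between replicates. Its median residual variance was 0.441, against 0.137 with the replicate block. The script was tested on simulated data.

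Within a time point the replicate number names the BeadChip, and deviations of same-numbered arrays correlated at 0.449 to 0.825 over the 15 pairs of groups, so the numbers pair the samples and blocked values stand beside the results whose call they change. Alternatives were the replicate number or BeadChip as a block, BeadChip as a random term, other background, scaling and detection settings, the mean of a gene's probes, and each array left out. The members, gene lists and comparisons were chosen with earlier results of these data known, so no list was tested. Named are up to 6 members per comparison with the largest difference among those detected on all 4 arrays with 1 sign in both replicates, plus Srebf1, Srebf2 and Insig1, and up to 3 other pathway genes by smallest p. Any further gene named was chosen after its values were seen. Sequences are RefSeq's, from a table of promoters on GRCm38.p6. The number of arrays limits the precision.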

Additional observations from a re-analysis of the deposited data

Results flagged for a closer look

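Among members detected on all 8 arrays involved, 4 siRNA differences turned sign between the times. Those of both replicates had 1 sign at 18 h and the opposite sign at 48 h. The change between the times did not pass the limma test. How many of all tested genes turned likewise was not counted, so these 4 are not shown to be particular to the members. Dhcr7 with siBRM was 0.20 at 18 h and -0.29 at 48 h, a change of -0.49 ± 0.67 (SE; limma adjusted p = 1.0). With siBRG1 Dhcr7 was 0.45 and then -0.50, a change of -0.95 ± 0.67 (limma adjusted p = 1.0; 0.918 with the BeadChip block). Mvd with siBRG1 was 0.11 and then -0.75, a change of -0.86 ± 0.83 (limma adjusted p = 1.0). Srebf1 with siBRM was 0.32 and then -0.35, a change of -0.68 ± 1.16 (limma adjusted p = 1.0). Sc5d with siBRM, detected on 6 of its 8 arrays, also turned, from 0.050 to -0.41 (limma adjusted p = 1.0).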

How the results depend on the processing

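The causes of the changes below were not tested. The replicate block left every siRNA comparison with 0 members called, and the Ch25h difference with siBRG1 at 48 h at 1.89 (limma adjusted p = 0.130). BeadChip as a random term raised the members called to 1 for siBRG1 against siSCR at 48 h (Ch25h) and to 1 for siSCR over time (Lss). The sterol median with siBRM at 18 h was 0.19 with median scaling and 0.050 with the mean of a gene's probes, and with siBRG1 at 18 h 0.071 with genes detected on all 12 arrays. With siBRM at 48 h it was -0.091 without background correction and with the authors' normalized table, and -0.52 with median scaling, which also gave -0.58 with siBRG1 at 48 h and -0.068 for siSCR over time. Median scaling moved the median of all tested genes to -0.26, -0.18 and 0.27 in those 3 comparisons, so that the sterol median lay -0.26, -0.40 and -0.34 from it. Leaving out each array in turn gave sterol medians of -0.044 to 0.45 (siBRM, 18 h), -0.017 to 0.21 (siBRG1, 18 h) and -0.24 to 0.054 (siBRM, 48 h), and fatty acid medians of -0.041 to 0.25 (siBRM, 18 h), -0.12 to 0.035 (siBRG1, 18 h), -0.28 to 0.23 (siBRM, 48 h), -0.25 to 0.25 (siBRG1, 48 h) and -1.08 to -0.49 (siSCR over time). It reversed these differences, none of them called. With siBRM at 18 h, Ch25h ranged from -0.043 to 0.66, Msmo1 from -0.91 to 2.93, Scd1 from -1.66 to 0.48, Srebf1 from -0.54 to 1.19 and Tm7sf2 from -0.54 to 0.99. With siBRG1 at 18 h, Ch25h ranged from -0.00014 to 0.70 and Scd2 from -1.26 to 0.57. With siBRM at 48 h, Mvd ranged from -0.62 to 0.0024, Pmvk from -1.19 to 0.27 and Srebf1 from -0.95 to 0.24, and with siBRG1 Pmvk from -1.56 to 0.29. The Ch25h difference with siBRG1 at 48 h ranged from 1.28 to 2.11 over 14 alternatives and passed the threshold in 1. All 14 alternatives kept the siSCR difference of Lss below 0 (-1.90 to -0.65), with 1 past the threshold. The main counts of members called were all 0, and the 68 other alternatives for counts gave 0 again, which shows no more than that. Of the remaining alternatives, 413 for single genes kept their direction and side of the threshold, and 119 for medians moved by less than the spread between replicates. The sign turned in 8 of those 119, all of them fatty acid medians near 0, as with median scaling for siBRM (0.083 at 18 h and -0.20 at 48 h).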
